A study of Saccharomyces cerevisiae with 9 samples.

Results

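The genes of the tricarboxylic acid (TCA) cycle, the glyoxylate cycle and gluconeogenesis were followed in 3 Saccharomyces cerevisiae strains. The 34 genes were taken by name, from the pyruvate dehydrogenase complex through the TCA cycle to isocitrate lyase, malate synthase, phosphoenolpyruvate carboxykinase, fructose-1,6-bisphosphatase and the pyruvate carboxylases. Each had a probe among the 6256 probes on the array, and all 34 were among the 5947 probes that were well above background on the 3 arrays of at least 1 strain and were therefore tested. All 34 were well above background on all 9 arrays.

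The 9 arrays were 1-colour Agilent arrays, 3 for each strain. Hyb-8 is a hybrid strain, a single isolate from mated, UV-mutagenised pools of the other strains, and its label gives PHO13 as deleted. Sun224T-K is the acid-tolerant parental strain, a diploid marked with KanMX at HO, and its label also gives PHO13 as deleted. Sun049T-Z is the thermotolerant parental strain, a diploid marked for zeocin resistance at HO, and its label calls it the control. All 3 strains carry a plasmid with XYL1 and XYL2 of Scheffersomyces stipitis, XKS1 and a clonNAT marker, so they can use xylose. Cells were taken 3 h into fermentation, in medium that held 50 g/L xylose, 15 mM formic acid and 20 mM acetic acid and was kept at 38°C. Every sample was under heat and acid co-stress, and no unstressed sample was analysed here. The comparisons asked how the hybrid strain differed from its parental strains under these conditions.

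In yeast, acetyl-CoA enters the TCA cycle in the mitochondrion, where citrate is oxidised stepwise to oxaloacetate and the electrons go to NADH and, through succinate dehydrogenase, to ubiquinone. The glyoxylate cycle bypasses the decarboxylating steps with isocitrate lyase and malate synthase, so that C2 compounds such as acetate can feed biosynthesis, and phosphoenolpyruvate carboxykinase and fructose-1,6-bisphosphatase then run gluconeogenesis. Glucose represses most of these genes, and the Hap2/3/4/5 complex, Cat8, Sip4 and the Rtg proteins are among their regulators.

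Levels are given as log2 intensity relative to the 75th percentile of the array, so 0 is the 75th percentile and 1 unit is a doubling of signal. They can be compared between strains for a gene but not between genes. A gene was called when its fold change was at least 2 (1 on the log2 scale) with an adjusted p under 0.05 (limma over all 5947 probes, Benjamini-Hochberg), and differences under 2-fold are given with their adjusted p. Each difference is the first strain minus the second, and each strain's arrays serve in 2 of the 3 comparisons, which are therefore not independent. Whether a strain's 3 arrays stem from separate cultures is not stated in the labels, so p-values measure only the spread between these arrays, which may be technical.

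Sun049T-Z replicate 1 stood apart from the other arrays. Replicate spots of a probe had a median SD of 0.32 log2 on that array and of at most 0.067 on the other 8, and 639 of its spots lay more than 8-fold below the median of their probe, against 1 such spot on the other 8 arrays together. Of those spots 7 belonged to 6 of the 34 genes (LPD1, IDH1, IDP1, MDH2, MAE1 and MLS1), whose mean on that array lay below the median of its spots, and the values with the median of the spots or without that array are given beside them. Spots of other genes were spread there too, with an SD of 1.13 for IDP3, 1.08 for PCK1, 0.75 for FUM1 and 0.72 for SDH3. Slide numbers follow the scanner headers: slide 1 held only Sun049T-Z replicate 1, slide 4 only Hyb-8 replicate 2, and slides 2 and 3 held arrays of all 3 strains. Slide 2 held Hyb-8 replicate 1, Sun224T-K replicates 1 and 2 and Sun049T-Z replicate 2, and slide 3 held replicate 3 of each strain. Differences within a slide thus compare single arrays, apart from Sun224T-K on slide 2. They reuse arrays of the main fit and carry no measure of spread. The PHO13 probe went against the genotype labels, at -1.72 ± 0.02 in Hyb-8, -1.56 ± 0.31 in Sun224T-K and -3.78 ± 0.10 in Sun049T-Z (SD, n = 3 each), lowest in the strain labelled control, and where it lies relative to the deletion is not given in the sources used here. The published strain list of the study gives no PHO13 deletion for any of the 3 strains. Strain names below are those on the labels, so Hyb-8 stands for the arrays labelled Hyb-8, and every direction rests on those labels.

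Of the 34 genes, 2 were called in either direction between Hyb-8 and Sun224T-K, where 1.24% of all genes tested were. Between Hyb-8 and Sun049T-Z 7 were called, where 18.5% were, and between Sun224T-K and Sun049T-Z 9 were called, where 20.1% were.

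In Hyb-8 against Sun049T-Z, 6 of the 34 genes were called higher (CIT3, IDH1, IDP3, FUM1, MAE1 and PCK1), where 9.37% of all genes tested were, and 1 was called lower (SDH9), where 9.1% were. Their median difference was 0.38, against 0.03 over all genes tested, and it was 0.19 without Sun049T-Z replicate 1 and also 0.19 with the median of the spots. The same 6 genes and SDH9 were called without that array. At any fold, 14 of the 34 were higher at an adjusted p under 0.05, where 28.7% of all genes were, and 7 were lower, where 27.3% were. The Hyb-8 arrays lay wholly above the Sun049T-Z arrays for 14 genes and wholly below for 7, where 34.1% and 31.6% of all genes did.

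In Sun224T-K against Sun049T-Z, 9 genes were called higher (LPD1, IDH1, IDH2, KGD1, LSC1, SDH3, FUM1, MAE1 and PCK1), where 9.42% of all genes were, and 0 lower, where 10.7% were. At an unadjusted p under 0.05 and the same fold the count of lower genes was also 0. The median difference was 0.40, against 0.00018 over all genes. Without Sun049T-Z replicate 1, 8 were called: LPD1 and IDH2 dropped out and LAT1, the core acetyltransferase of pyruvate dehydrogenase, came in. At any fold, 17 of the 34 were higher at an adjusted p under 0.05 and 5 were lower, where 29.1% of all genes were in each direction. The Sun224T-K arrays lay wholly above the Sun049T-Z arrays for 19 genes and wholly below for 7, where 33.4% and 32.8% of all genes did.

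Between Hyb-8 and Sun224T-K, 0 genes were called higher in the hybrid, where 0.858% of all genes were (also 0 at an unadjusted p under 0.05 and the same fold), and 2 were called lower (SDH2 and SDH9), where 0.387% were. At any fold, 6 genes were lower at an adjusted p under 0.05, which is ACO1 and all 5 succinate dehydrogenase genes, where 2.46% of all genes were. ICL1 and FBP1 were higher in the same sense, where 3.03% of all genes were, but ICL1 passed that p in 17 of the 24 settings tried and FBP1 in 11. Of the 6 lower genes, SDH2 and SDH9 passed it in 24, ACO1 in 22, SDH1 in 21, SDH4 in 17 and SDH3 in 15. The median difference over the 34 genes was -0.22, against 0.01 over all genes.

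**Figure D1:**
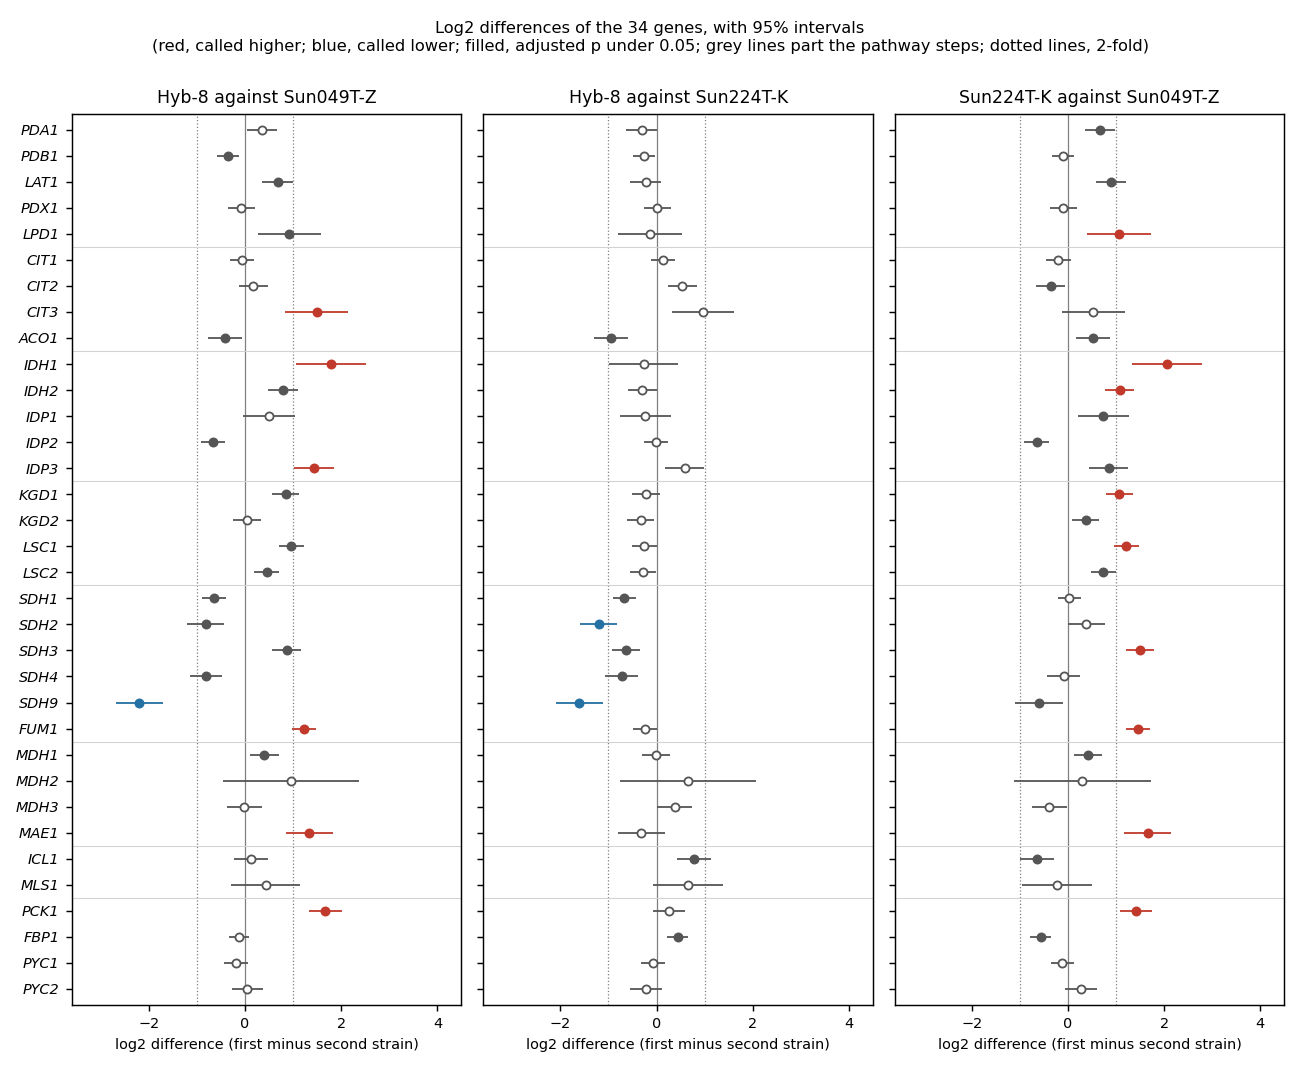
Log2 differences of the 34 genes (first strain minus second) in the 3 comparisons, with points for the limma estimate (red called higher, blue called lower, filled where the adjusted p was under 0.05), bars for its 95% interval and dotted lines at 2-fold. Genes run down the page by pathway step, and both genes called in Hyb-8 against Sun224T-K, SDH2 at -1.20 and SDH9 at -1.60, lie in the succinate dehydrogenase block.

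Among genes called between the parental strains, the Hyb-8 mean lay nearer Sun224T-K than Sun049T-Z for all 9 of the 9 genes here, where it did for 91.9% of the 1194 such genes on the array. On a scale with Sun049T-Z at 0 and Sun224T-K at 1, the Hyb-8 mean ranged from 0.578 for SDH3 to 1.18 for PCK1, with a median of 0.807. The same shared arrays enter both ends of this scale, so the placement is a description and was not tested.

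Succinate dehydrogenase, which is both a TCA cycle enzyme and complex II of the respiratory chain, was the enzyme with most genes below both parents in the hybrid strain. SDH9 (YJL045W, chromosome X), a minor paralog of the flavoprotein subunit, had levels of 0.76, -0.02 and 0.50 in Hyb-8, 2.23, 1.76 and 2.06 in Sun224T-K and 2.91, 2.54 and 2.39 in Sun049T-Z. All 3 Hyb-8 arrays lay below all 6 parental arrays, and the gap to the nearest parental array was larger than the spread within any strain. The difference was -2.20 ± 0.22 against Sun049T-Z (4.6-fold lower in Hyb-8; adjusted p = 3.6e-05, SE from limma) and -1.60 ± 0.22 against Sun224T-K (3.04-fold lower in Hyb-8; adjusted p = 0.0051). SDH9 alone of the 34 was called lower against both parents, where 0.219% of all genes tested (13 genes) were, and 0 of the 34 were called higher against both, where 0.336% were. SDH9 also differed between the parental strains, by -0.60 ± 0.22 (adjusted p = 0.041), and this was -0.45 without Sun049T-Z replicate 1 (adjusted p = 0.12).

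SDH2 (YLL041C, chromosome XII) encodes the iron-sulfur subunit. Its levels were 3.11, 2.36 and 2.83 in Hyb-8, 4.01, 3.89 and 4.0 in Sun224T-K and 3.70, 3.56 and 3.49 in Sun049T-Z. Hyb-8 was again below every parental array, with replicate 2 the lowest. The difference was -1.20 ± 0.17 against Sun224T-K (adjusted p = 0.0060) and -0.82 ± 0.17 against Sun049T-Z (adjusted p = 0.0029).

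SDH1 (YKL148C, chromosome XI), the flavoprotein subunit itself, had levels of 3.13, 3.05 and 3.16 in Hyb-8, 3.75, 3.71 and 3.89 in Sun224T-K and 3.93, 3.66 and 3.67 in Sun049T-Z. SDH4 (YDR178W, chromosome IV), a membrane anchor subunit, had levels of 2.91, 2.40 and 2.67 in Hyb-8, 3.59, 3.20 and 3.35 in Sun224T-K and 3.56, 3.48 and 3.38 in Sun049T-Z. For both genes the parental arrays overlapped each other and all lay above the Hyb-8 arrays. SDH1 was lower in Hyb-8 with a difference of -0.67 ± 0.11 against Sun224T-K (adjusted p = 0.012) and of -0.64 ± 0.11 against Sun049T-Z (adjusted p = 0.00088). SDH4 was lower with a difference of -0.72 ± 0.15 against Sun224T-K (adjusted p = 0.028) and of -0.81 ± 0.15 against Sun049T-Z (adjusted p = 0.0014). These differences were all under 2-fold.

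SDH3 (YKL141W, chromosome XI), the cytochrome b subunit that forms the membrane anchor with Sdh4, took a different order. Its levels were 2.69, 2.40 and 2.62 in Hyb-8, 3.28, 3.02 and 3.30 in Sun224T-K and 1.55, 1.76 and 1.83 in Sun049T-Z, so the 3 strains did not overlap and Hyb-8 lay between its parental strains. SDH3 was higher in Sun224T-K than in Sun049T-Z by 1.49 ± 0.13 (adjusted p = 1.5e-05), a 2.81-fold difference. In Hyb-8 it was 0.86 ± 0.13 above Sun049T-Z (adjusted p = 0.00042) and lower than in Sun224T-K with a difference of -0.63 ± 0.13 (adjusted p = 0.027). SDH1, SDH2, SDH4 and SDH9 were thus below Sun049T-Z while SDH3 was above it, and the difference between the genes was not itself tested.

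All 5 succinate dehydrogenase genes were therefore lower in Hyb-8 than in Sun224T-K at an adjusted p under 0.05, and all 5 kept a difference below 0 under each of the 24 settings tried. The number past that p ranged from 2 to 5 over those settings. It was 2 when Hyb-8 replicate 3 or Sun224T-K replicate 3 was left out. Leaving out Hyb-8 replicate 2, Sun224T-K replicate 1 or Sun049T-Z replicate 2 gave 3. ACT1 scaling likewise gave 3 of the 5, and so did the fit that held slide as a fixed term. The number was 4 with normexp, with outlier spots kept and with the replicate block. Without Hyb-8 replicate 2, SDH2 was also just short of 2-fold (-0.999941). Within slide 2 and within slide 3, SDH9 differed by -1.23 and -1.56 against Sun224T-K and by -1.78 and -1.89 against Sun049T-Z. Those values rest on the few arrays of each slide and carry no measure of spread. With slide as a block SDH9 differed by -1.37 against Sun224T-K and by -1.84 against Sun049T-Z. SDH2 against Sun224T-K was -0.84 and -1.18 within those slides and -0.99 with slide as a block, which is under the 2-fold threshold. SDH9 is the only paralog among the 5. The paralogs SHH3 (of SDH3) and SHH4 (of SDH4), kept in a related list, had higher means in Hyb-8 than in Sun224T-K. The means were 2.85 against 2.21 for SHH3 and 1.39 against 0.83 for SHH4, and Sun224T-K replicate 2 was low for both. The Sun224T-K arrays stood at 2.52, 1.61 and 2.49 for SHH3 and at 1.28, -0.02 and 1.23 for SHH4. The Hyb-8 arrays stood at 2.87, 2.83 and 2.84 for SHH3 and at 1.53, 1.41 and 1.24 for SHH4. Neither difference between Hyb-8 and Sun224T-K had an adjusted p under 0.05 in limma.

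Of the 34 genes, SDH1, SDH2, SDH4, SDH9 and ACO1 were below both parents in Hyb-8 at an adjusted p under 0.05 and any fold, where 1.55% of all genes were. The Hyb-8 arrays lay below all 6 parental arrays for SDH1, SDH2, SDH4, SDH9 and PDB1, where 6.83% of all genes did, and above all 6 for CIT3 and IDP3, where 6.22% did.

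**Figure D2:**
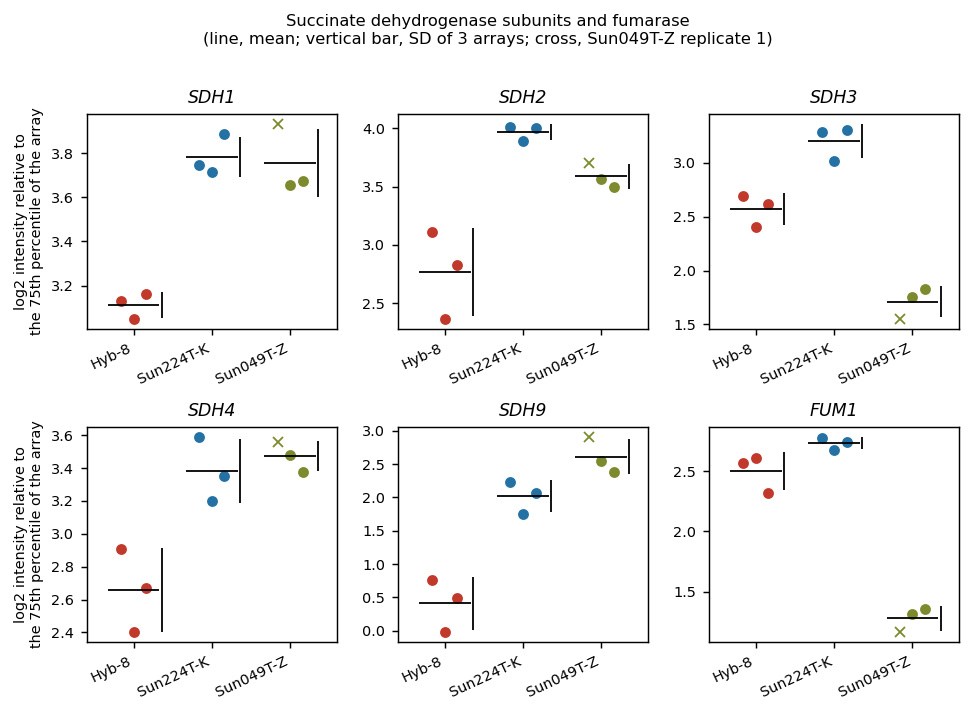
Levels of the 5 succinate dehydrogenase genes and FUM1 on each array (log2 intensity relative to the 75th percentile of the array; points are arrays, the cross is Sun049T-Z replicate 1, lines are means and vertical bars the SD of 3 arrays, and each panel has its own vertical scale that does not start at 0). Hyb-8 is the lowest strain for SDH1, SDH2, SDH4 and SDH9, lies between the parental strains for SDH3 and stands with Sun224T-K for FUM1.

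The next enzyme did not share that order. FUM1 (YPL262W, chromosome XVI), the fumarase that acts in mitochondria and cytosol, had levels of 2.57, 2.61 and 2.32 in Hyb-8, 2.78, 2.67 and 2.75 in Sun224T-K and 1.16, 1.32 and 1.36 in Sun049T-Z. Both Hyb-8 and Sun224T-K lay well above Sun049T-Z. FUM1 was higher in Hyb-8 than it was in Sun049T-Z by 1.22 ± 0.11 (adjusted p = 2.0e-05) and in Sun224T-K than in Sun049T-Z by 1.45 ± 0.11 (adjusted p = 6.5e-06). Hyb-8 against Sun224T-K gave -0.23, with a 95% interval of -0.48 to 0.01 and an adjusted p of 0.25, although the 3 Hyb-8 arrays were all below the Sun224T-K arrays. FUM1 differed from Sun049T-Z by 1.26 and 0.96 within slides 2 and 3 in Hyb-8, and by 1.41 and 1.39 in Sun224T-K.

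The pyruvate dehydrogenase complex, which makes mitochondrial acetyl-CoA from pyruvate, had 0 of its 5 genes called in Hyb-8 against Sun049T-Z or Sun224T-K, where 18.5% and 1.24% of all genes were, and 1 between the parental strains, where 20.1% were. That gene was LPD1 (YFL018C, chromosome VI), the dihydrolipoamide dehydrogenase that the complex shares with 2-oxoglutarate dehydrogenase. Its levels were 3.82, 3.69 and 3.67 in Hyb-8, 4.04, 3.73 and 3.82 in Sun224T-K and 1.97, 3.22 and 3.23 in Sun049T-Z. The low value is that of Sun049T-Z replicate 1, where 1 spot lay more than 8-fold below the median of its probe and the median of the spots was 3.19. The difference of Sun224T-K against Sun049T-Z was 1.05 ± 0.29 (adjusted p = 0.012), 0.64 without that array (adjusted p = 0.0019) and 0.66 with the median of the spots (adjusted p = 0.00045). The direction held and the 2-fold call did not.

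LAT1, the acetyltransferase core, was higher in Hyb-8 than it was in Sun049T-Z by 0.67 ± 0.14 (adjusted p = 0.0030) and in Sun224T-K by 0.90 ± 0.14 (adjusted p = 0.00058). PDA1, the alpha subunit of the decarboxylase, was higher in Sun224T-K than in Sun049T-Z by 0.66 ± 0.14 (adjusted p = 0.0029). PDB1, its beta subunit, was instead lower in Hyb-8 than in Sun049T-Z with a difference of -0.36 ± 0.10 (adjusted p = 0.012), so members of this complex did not move together. PDX1, the protein that tethers the dehydrogenase, differed by -0.10 to 0.02 over the comparisons, and Sun224T-K against Sun049T-Z, the largest of these, had a 95% interval of -0.38 to 0.19.

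Of the citrate synthases, only CIT3 was called. CIT3 (YPR001W, chromosome XVI), a mitochondrial citrate and methylcitrate synthase, had levels of 1.45, 1.44 and 1.20 in Hyb-8, 0.93, -0.41 and 0.68 in Sun224T-K and -0.16, -0.05 and -0.17 in Sun049T-Z. The Hyb-8 arrays were above all others, and Sun224T-K replicate 2 fell below the Sun049T-Z arrays while the other Sun224T-K arrays were above them. CIT3 was higher in Hyb-8 than it was in Sun049T-Z by 1.49 ± 0.29 (adjusted p = 0.0018), and by 1.5 and 1.38 within slides 2 and 3. Against Sun224T-K the difference was 0.97 ± 0.29 (adjusted p = 0.087), 0.56 without Sun224T-K replicate 2 (adjusted p = 0.053) and 1.23 without that strain's replicate 1 (adjusted p = 0.047), which made it a call.

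CIT1, the main mitochondrial citrate synthase, differed by -0.07 in Hyb-8 against Sun049T-Z (95% interval -0.32 to 0.19) and by 0.14 against Sun224T-K (-0.12 to 0.39). CIT2, the peroxisomal isozyme and a known target of retrograde signalling by the Rtg proteins, was lower in Sun224T-K than in Sun049T-Z with a difference of -0.36 ± 0.13 (adjusted p = 0.042), and of -0.27 without Sun049T-Z replicate 1 (adjusted p = 0.11). In Hyb-8 CIT2 was 0.53 ± 0.13 above Sun224T-K with no overlap of arrays, and its adjusted p was 0.053, or 0.034 in the fit without that array.

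ACO1 (YLR304C, chromosome XII), the aconitase of the cycle, had levels of 3.63, 3.07 and 3.21 in Hyb-8, 4.35, 4.16 and 4.26 in Sun224T-K and 3.93, 3.64 and 3.62 in Sun049T-Z. Sun224T-K was the highest strain, and the Hyb-8 arrays lay below it and partly below Sun049T-Z. ACO1 was lower in Hyb-8 than in Sun224T-K with a difference of -0.95 ± 0.16 (adjusted p = 0.012), a 1.94-fold difference just short of the threshold, and lower than in Sun049T-Z with a difference of -0.43 ± 0.16 (adjusted p = 0.043). The second of these had an adjusted p of 0.12 without Sun049T-Z replicate 1.

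The NAD-dependent isocitrate dehydrogenase, a rate-controlling enzyme of the cycle made of Idh1 and Idh2, was higher in Hyb-8 and in Sun224T-K than in Sun049T-Z. IDH1 (YNL037C, chromosome XIV) had levels of 2.43, 2.25 and 2.25 in Hyb-8, 2.59, 2.63 and 2.52 in Sun224T-K and -0.41, 1.02 and 0.96 in Sun049T-Z. Every Hyb-8 and Sun224T-K array was above every Sun049T-Z array, also with the median of the spots for Sun049T-Z replicate 1, which was 0.90. IDH1 was higher by 1.79 ± 0.32 in Hyb-8 (adjusted p = 0.0012) and by 2.06 ± 0.32 in Sun224T-K (adjusted p = 0.00053). Without Sun049T-Z replicate 1 the differences were 1.32 (adjusted p = 1.7e-05) and 1.59 (adjusted p = 6.4e-06).

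IDH2 (YOR136W, chromosome XV) had levels of 2.29, 2.11 and 1.81 in Hyb-8, 2.35, 2.46 and 2.28 in Sun224T-K and 1.15, 1.42 and 1.30 in Sun049T-Z. It was higher by 1.07 ± 0.14 in Sun224T-K (adjusted p = 0.00017) and by 0.78 ± 0.14 in Hyb-8 (adjusted p = 0.0011), with no overlap of arrays in either. The 2-fold call in Sun224T-K was lost without Sun049T-Z replicate 1, at 0.999, and the difference was 0.98 and 0.97 within slides 2 and 3.

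The NADP-dependent isozymes each took a pattern of their own. IDP3 (YNL009W, chromosome XIV), the peroxisomal form that supplies NADPH for oxidation of unsaturated fatty acids, had levels of -0.70, -0.72 and -0.48 in Hyb-8, -1.05, -1.68 and -0.92 in Sun224T-K and -2.06, -2.11 and -2.02 in Sun049T-Z. Hyb-8 lay above both parents. The parental arrays did not overlap in these means, but the spots of Sun049T-Z replicate 1 had an SD of 1.13, and with the median of the spots that array stood at -1.47, above Sun224T-K replicate 2 at -1.67. IDP3 was higher than in Sun049T-Z by 1.43 ± 0.18 in Hyb-8 (adjusted p = 0.00015) and by 0.85 ± 0.18 in Sun224T-K (adjusted p = 0.0032). IDP2, the cytosolic form, was lower than in Sun049T-Z with a difference of -0.67 ± 0.11 in Hyb-8 (adjusted p = 0.00078) and of -0.65 ± 0.11 in Sun224T-K (adjusted p = 0.00088). IDP1, the mitochondrial form, differed by 0.50 in Hyb-8 (adjusted p = 0.10) and by 0.73 in Sun224T-K (adjusted p = 0.024), and by 0.19 and 0.43 without Sun049T-Z replicate 1, where 1 of its spots was far below the rest.

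**Figure D3:**
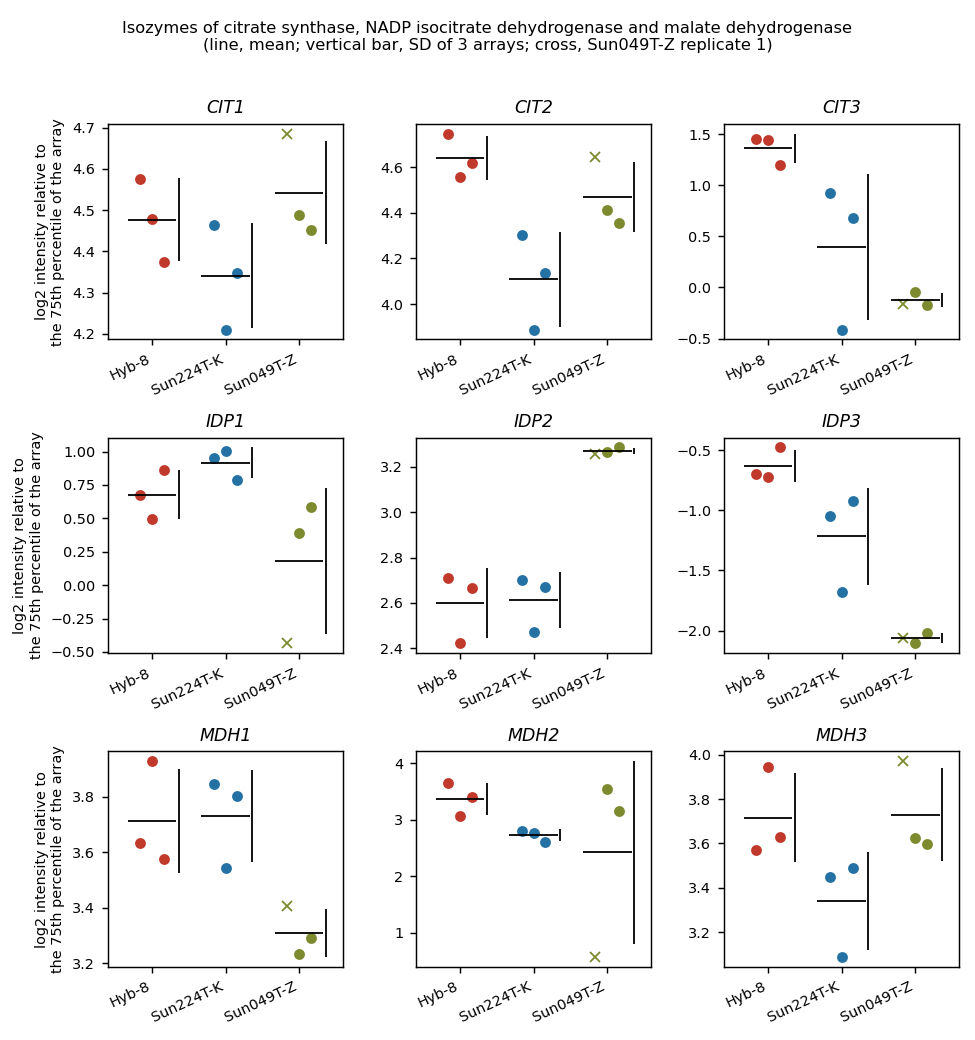
Levels of the citrate synthase, NADP isocitrate dehydrogenase and malate dehydrogenase isozymes on each array (log2 intensity relative to the 75th percentile of the array; points are arrays, the cross is Sun049T-Z replicate 1, lines are means and vertical bars the SD of 3 arrays, and each panel has its own vertical scale that does not start at 0). CIT3 and IDP3 are highest in Hyb-8, IDP2 is lower in Hyb-8 and Sun224T-K than in Sun049T-Z, and the cross in the MDH2 panel shows Sun049T-Z replicate 1 at 0.57.

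The 2-oxoglutarate dehydrogenase and succinyl-CoA ligase genes had differences above 0 against Sun049T-Z in both other strains. All 4 were higher in Sun224T-K at an adjusted p under 0.05 and any fold, where 29.1% of all genes were, and 3 of 4 were in Hyb-8, where 28.7% were. KGD1 (YIL125W, chromosome IX), the decarboxylase component, had levels of 2.12, 2.04 and 2.10 in Hyb-8, 2.36, 2.15 and 2.43 in Sun224T-K and 1.47, 1.13 and 1.13 in Sun049T-Z. Sun224T-K exceeded Sun049T-Z by 1.07 ± 0.13 (adjusted p = 9.15e-05) and Hyb-8 exceeded it by 0.85 ± 0.13 (adjusted p = 0.00038).

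LSC1 (YOR142W, chromosome XV), the alpha subunit of succinyl-CoA ligase, had levels of 0.71, 0.44 and 0.42 in Hyb-8, 0.73, 0.82 and 0.79 in Sun224T-K and -0.60, -0.35 and -0.35 in Sun049T-Z. It was higher by 1.21 ± 0.12 in Sun224T-K (adjusted p = 2.7e-05) and by 0.96 ± 0.12 in Hyb-8 (adjusted p = 0.00012). Its partner LSC2, the beta subunit, was higher by 0.73 ± 0.12 in Sun224T-K (adjusted p = 0.00062) and by 0.45 ± 0.12 in Hyb-8 (adjusted p = 0.0096). KGD2, the succinyltransferase component, was higher by 0.37 ± 0.13 in Sun224T-K (adjusted p = 0.031), and its 0.04 in Hyb-8 had a 95% interval of -0.24 to 0.32. Within slides 2 and 3 the difference between the parental strains was 1.13 and 1.30 for KGD1 and 1.13 and 1.15 for LSC1.

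Of the malate-handling enzymes, MAE1 (YKL029C, chromosome XI), the mitochondrial malic enzyme that turns malate into pyruvate, was called. Its levels were 2.56, 2.03 and 2.29 in Hyb-8, 2.67, 2.63 and 2.54 in Sun224T-K and 0.44, 1.30 and 1.14 in Sun049T-Z. All arrays of Hyb-8 and Sun224T-K were above all Sun049T-Z arrays. MAE1 was higher by 1.33 ± 0.22 in Hyb-8 (adjusted p = 0.00067) and by 1.65 ± 0.22 in Sun224T-K (adjusted p = 0.00018), and by 1.08 and 1.40 without Sun049T-Z replicate 1, where 1 spot was far below the others.

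MDH1, the mitochondrial malate dehydrogenase, was higher than in Sun049T-Z by 0.40 ± 0.13 in Hyb-8 (adjusted p = 0.025) and by 0.42 ± 0.13 in Sun224T-K (adjusted p = 0.020). MDH3, the peroxisomal form, differed by -0.01 in Hyb-8 (95% interval -0.38 to 0.35) and by -0.39 in Sun224T-K (adjusted p = 0.063).

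MDH2 (YOL126C, chromosome XV), the cytosolic malate dehydrogenase of gluconeogenesis, depended on 1 array. Its levels were 3.65, 3.08 and 3.40 in Hyb-8, 2.81, 2.76 and 2.61 in Sun224T-K and 0.57, 3.54 and 3.16 in Sun049T-Z, and 2 spots on Sun049T-Z replicate 1 lay more than 8-fold below the median of the spots. Sun224T-K against Sun049T-Z was 0.30 ± 0.63 (adjusted p = 0.70) with that array and -0.62 (adjusted p = 0.017) without it, so the sign turned. With the median of the spots it was -0.30 (adjusted p = 0.36). Hyb-8 against Sun049T-Z was 0.95 ± 0.63 (adjusted p = 0.22) with that array and 0.03 (adjusted p = 0.92) without it. With the median of the spots it was 0.36 (adjusted p = 0.28).

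The glyoxylate cycle enzymes had their lowest means in Sun224T-K. ICL1 (YER065C, chromosome V), isocitrate lyase, had levels of 5.42, 4.89 and 5.18 in Hyb-8, 4.60, 4.22 and 4.35 in Sun224T-K and 5.15, 5.06 and 4.89 in Sun049T-Z. The Hyb-8 and Sun049T-Z arrays overlapped and both strains lay above Sun224T-K. ICL1 was higher in Hyb-8 than it was in Sun224T-K by 0.77 ± 0.16 (adjusted p = 0.026). Over the 24 settings this difference ranged from 0.51 to 0.93, and its adjusted p was above 0.05 with quantile normalization, with outlier spots kept, and without Hyb-8 replicate 1 or 3, Sun224T-K replicate 2 or 3 or Sun049T-Z replicate 2. ICL1 was lower in Sun224T-K than in Sun049T-Z with a difference of -0.64 ± 0.16 (adjusted p = 0.0066). Hyb-8 against Sun049T-Z was 0.13, with a 95% interval of -0.23 to 0.48.

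MLS1 (YNL117W, chromosome XIV), malate synthase, had levels of 4.02, 4.08 and 3.95 in Hyb-8, 3.60, 2.99 and 3.51 in Sun224T-K and 2.73, 4.06 and 3.99 in Sun049T-Z. With 1 spot far below the rest on Sun049T-Z replicate 1, Sun224T-K against Sun049T-Z was -0.23 ± 0.32 (adjusted p = 0.56), and it was -0.66 (adjusted p = 0.010) without that array. Hyb-8 against Sun224T-K was 0.65 ± 0.32 with no overlap of arrays, and its adjusted p was 0.27, or 0.038 in the fit without that array, which also sets the spread.

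The gluconeogenic enzymes parted. PCK1 (YKR097W, chromosome XI), phosphoenolpyruvate carboxykinase, the enzyme that commits oxaloacetate to gluconeogenesis, had levels of 6.24, 6.30 and 6.12 in Hyb-8, 6.05, 5.66 and 6.18 in Sun224T-K and 4.39, 4.72 and 4.54 in Sun049T-Z. Hyb-8 and Sun224T-K overlapped and both stood apart from Sun049T-Z. PCK1 was higher by 1.67 ± 0.15 in Hyb-8 (3.18-fold; adjusted p = 1.9e-05) and by 1.41 ± 0.15 in Sun224T-K (2.66-fold; adjusted p = 5.0e-05). With the median of the spots the differences were 1.51 in Hyb-8 and 1.26 in Sun224T-K. Within slides 2 and 3 the differences were 1.52 and 1.58 for Hyb-8 and 1.14 and 1.63 for Sun224T-K.

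FBP1 (YLR377C, chromosome XII), fructose-1,6-bisphosphatase, had levels of 4.82, 4.72 and 4.84 in Hyb-8, 4.47, 4.29 and 4.30 in Sun224T-K and 4.91, 4.95 and 4.91 in Sun049T-Z. Sun224T-K was the lowest strain, as for ICL1. FBP1 was lower in Sun224T-K than in Sun049T-Z with a difference of -0.57 ± 0.09 (adjusted p = 0.00077) and had a difference of 0.44 ± 0.09 in Hyb-8 against Sun224T-K (adjusted p = 0.032). The second of these ranged from 0.18 to 0.60 over the settings and passed that test in 11 of 24. It did not pass with slide as a fixed block (adjusted p = 0.077), normexp (0.056) or quantile normalization (0.46), nor in 7 of the 9 fits that left out 1 array, all but those without Sun224T-K replicate 1 and Sun049T-Z replicate 1. Both PCK1 and FBP1 belong to gluconeogenesis, and in Sun224T-K against Sun049T-Z they differed in opposite directions.

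The pyruvate carboxylases, which refill oxaloacetate from pyruvate in the cytosol, showed no difference past the test. PYC1 differed by -0.19 in Hyb-8 against Sun049T-Z (95% interval -0.43 to 0.06) and by -0.07 against Sun224T-K (-0.32 to 0.17). PYC2 differed by 0.05 (-0.28 to 0.38) and by -0.21 (-0.54 to 0.12) in the same comparisons.

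**Figure D4:**
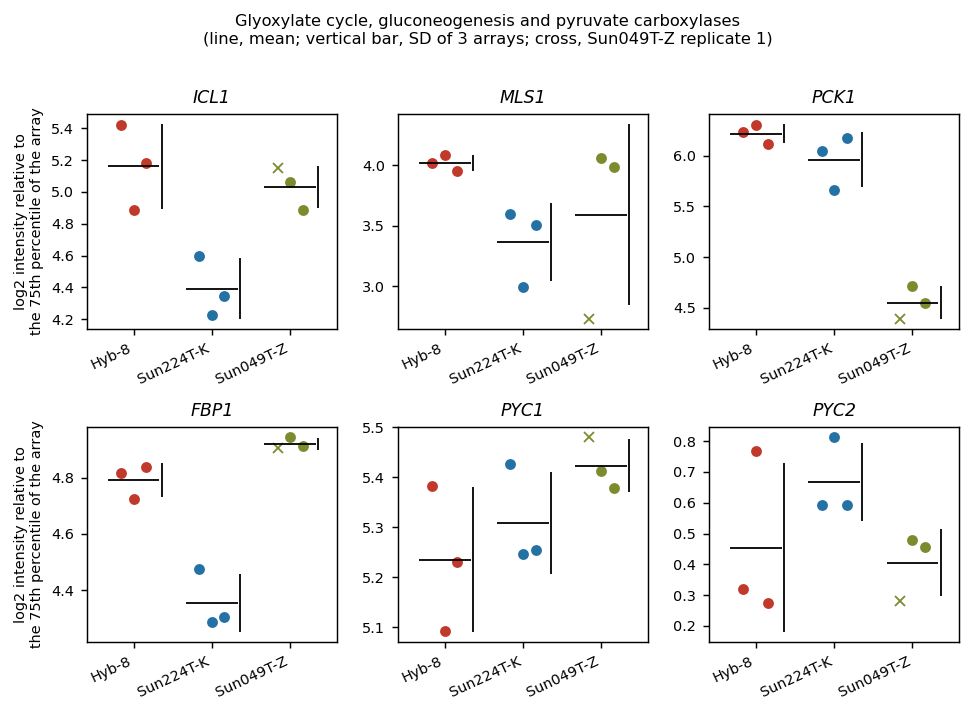
Levels of ICL1, MLS1, PCK1, FBP1, PYC1 and PYC2 on each array (log2 intensity relative to the 75th percentile of the array; points are arrays, the cross is Sun049T-Z replicate 1, lines are means and vertical bars the SD of 3 arrays, and each panel has its own vertical scale that does not start at 0). PCK1 is higher in Hyb-8 and Sun224T-K than in Sun049T-Z, ICL1 and FBP1 are lowest in Sun224T-K, and the cross in the MLS1 panel is Sun049T-Z replicate 1 at 2.73.

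Placed by compartment, the hybrid strain's differences from Sun224T-K did not run one way. Of the 23 genes of mitochondrial enzymes, 20 had a difference below 0, with a median of -0.27 over the 23, and these include the called SDH9 and SDH2. All 3 of the genes of peroxisomal enzymes (CIT2, IDP3 and MDH3) were above 0, with a median of 0.53, and 5 of the 8 genes of cytosolic enzymes were above 0, with a median of 0.35. Over all genes tested 52.1% were above 0, and most of these single differences did not pass the test. Over the 34 genes, the Hyb-8 arrays lay wholly below the Sun224T-K arrays for 15 genes and wholly above for 8, where 14.9% and 15.5% of all genes did.

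The genes that regulate or serve these pathways were taken from 5 lists of 60 genes in all, each of which was tested. In Hyb-8 against Sun224T-K, 0 of the 60 were called, where 1.24% of all genes were, and the differences of these genes given for Hyb-8 and for Sun224T-K are against Sun049T-Z unless stated. Of 16 regulators, HAP4, the activating subunit of the Hap2/3/4/5 complex that drives respiratory genes, was called higher against Sun049T-Z in the hybrid strain, where 9.37% of all genes were, and SIP4 and HAP5 were called lower, where 9.1% were. HAP4 had levels of 3.16, 3.01 and 3.12 in Hyb-8, 3.26, 3.53 and 3.30 in Sun224T-K and 1.94, 1.93 and 1.88 in Sun049T-Z, and the Sun049T-Z arrays stood apart. It was higher by 1.18 ± 0.10 in Hyb-8 (adjusted p = 1.7e-05) and by 1.45 ± 0.10 in Sun224T-K (adjusted p = 5.0e-06).

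SIP4, a zinc cluster activator that binds the carbon source responsive element of gluconeogenic genes, took the opposite order. Its levels were -1.98, -1.71 and -1.94 in Hyb-8, -2.21, -2.19 and -1.95 in Sun224T-K and -0.04, 0.01 and -0.23 in Sun049T-Z. SIP4 was lower with a difference of -1.79 ± 0.12 in Hyb-8 (adjusted p = 3.7e-06) and of -2.03 ± 0.12 in Sun224T-K (adjusted p = 1.7e-06), while PCK1 was higher in both. HAP5, a DNA-binding subunit of the Hap complex, was lower with a difference of -1.16 ± 0.12 in Hyb-8 (adjusted p = 4.5e-05) and of -0.65 ± 0.12 in Sun224T-K (adjusted p = 0.0014), so subunits of this complex also moved apart.

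Among 11 mitochondrial carriers, 1 was called higher in Hyb-8 against Sun049T-Z, where 9.37% of all genes were, and 0 lower, where 9.1% were. That carrier was YHM2, which exchanges citrate for 2-oxoglutarate, with levels of -1.57, -2.05 and -1.59 in Hyb-8, -1.64, -1.30 and -1.66 in Sun224T-K and -3.52, -3.87 and -3.83 in Sun049T-Z. It was higher by 2.00 ± 0.17 in Hyb-8 (adjusted p = 1.3e-05) and by 2.20 ± 0.17 in Sun224T-K (adjusted p = 7.0e-06). SFC1, the succinate and fumarate carrier, was called lower in Sun224T-K with a difference of -1.25 ± 0.13 (adjusted p = 3.6e-05) and had -0.80 ± 0.13 in Hyb-8 (adjusted p = 0.00052).

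Of 12 genes for regulation of pyruvate dehydrogenase, lipoylation and assembly of succinate dehydrogenase, 2 were called lower in Hyb-8 than in Sun049T-Z, where 9.1% of all genes were, and 0 higher, where 9.37% were. AIM22, a lipoate-protein ligase, was lower with a difference of -1.75 ± 0.10 in Hyb-8 (adjusted p = 1.2e-06) and of -1.60 ± 0.10 in Sun224T-K (adjusted p = 1.7e-06). The systematic name of AIM22 (YJL046W, chromosome X) is next in number to that of SDH9 (YJL045W), and an effect of position was not tested. SDH7, an assembly factor of succinate dehydrogenase, was lower with a difference of -1.23 ± 0.10 in Hyb-8 (adjusted p = 1.3e-05) and of -0.79 ± 0.10 in Sun224T-K (adjusted p = 0.00018), and lower in Hyb-8 than in Sun224T-K with a difference of -0.44 ± 0.10 (adjusted p = 0.042). PKP2, a kinase of pyruvate dehydrogenase, was called lower in Sun224T-K with a difference of -1.05 ± 0.18 (adjusted p = 0.00087).

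Of 12 paralogs and side enzymes, 2 were called higher in Hyb-8 against Sun049T-Z, where 9.37% of all genes were, and 3 lower, where 9.1% were. FRD1, the cytosolic fumarate reductase, was lower with a difference of -2.07 ± 0.11 in Hyb-8 (adjusted p = 1.1e-06) and of -1.91 ± 0.11 in Sun224T-K (adjusted p = 1.6e-06). SHH4, a paralog of SDH4, was lower with a difference of -1.35 ± 0.31 in Hyb-8 (adjusted p = 0.0051) and of -1.91 ± 0.31 in Sun224T-K (adjusted p = 0.00070). DAL7, a malate synthase paralog, was lower with a difference of -1.34 ± 0.18 in Hyb-8 (adjusted p = 0.00024) and of -1.36 ± 0.18 in Sun224T-K (adjusted p = 0.00020).

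The higher genes were PDH1 and ICL2, which act with CIT3 in the methylcitrate cycle for propionyl-CoA, a grouping made after the values were seen. CIT3 (YPR001W), PDH1 (YPR002W) and ICL2 (YPR006C) are all on chromosome XVI, with systematic names close in number. Whether their differences go with position or with function was not tested. PDH1, the 2-methylcitrate dehydratase, was higher in Hyb-8 than it was in Sun049T-Z by 1.46 ± 0.17 (adjusted p = 8.6e-05), and ICL2, the 2-methylisocitrate lyase, by 1.01 ± 0.11 (adjusted p = 5.2e-05), beside the 1.49 of CIT3. Against Sun224T-K the Hyb-8 arrays were wholly above for all 3 genes, as they were for 15.5% of all genes, with differences of 0.48 for PDH1 (adjusted p = 0.14), 0.54 for ICL2 (adjusted p = 0.024) and 0.97 for CIT3.

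The GID ubiquitin ligase marks gluconeogenic enzymes for degradation when glucose returns. Of 9 genes listed for this ligase and related factors, VID24 alone was called lower in both comparisons against Sun049T-Z, where 9.1% (Hyb-8) and 10.7% (Sun224T-K) of all genes were. Vid24 is the receptor that recognises substrates such as Fbp1 and Pck1. It had levels of -1.66, -1.86 and -1.87 in Hyb-8, -1.31, -1.46 and -1.72 in Sun224T-K and 1.69, 1.62 and 1.16 in Sun049T-Z, which is the largest difference among the 34 genes and the 5 lists. VID24 was lower with a difference of -3.29 ± 0.16 in Hyb-8 (adjusted p = 7.1e-07) and of -2.99 ± 0.16 in Sun224T-K (adjusted p = 1.1e-06). VID28, another subunit, was called higher in Hyb-8 by 1.09 ± 0.26 (adjusted p = 0.0059) against Sun049T-Z levels of -0.45, -1.53 and -1.44.

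**Figure D5:**
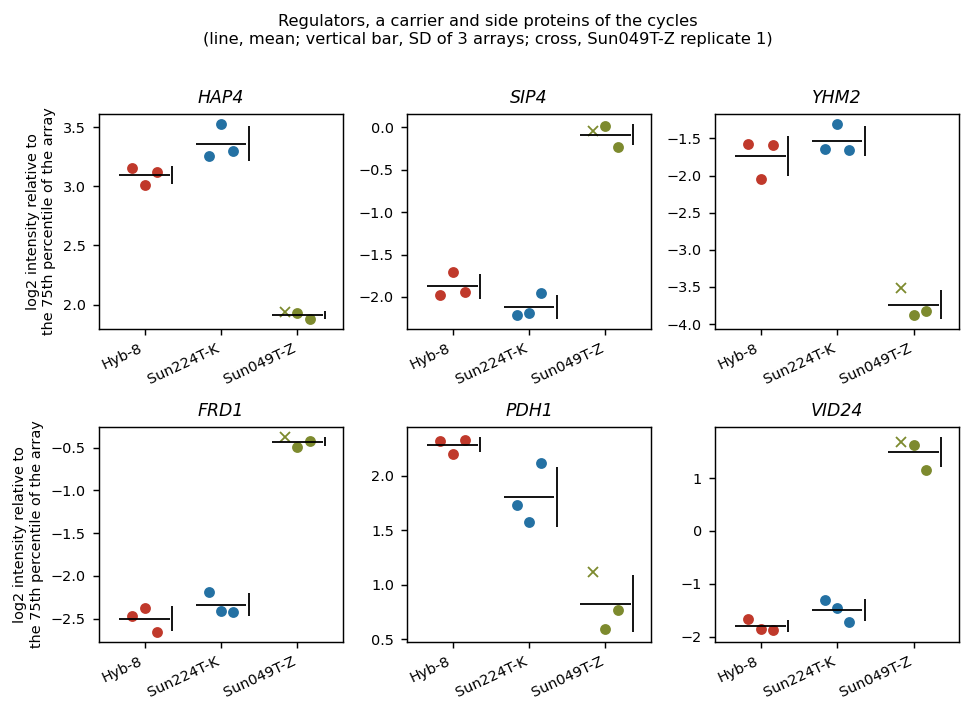
Levels of HAP4, SIP4, YHM2, FRD1, PDH1 and VID24 on each array (log2 intensity relative to the 75th percentile of the array; points are arrays, the cross is Sun049T-Z replicate 1, lines are means and vertical bars the SD of 3 arrays, and each panel has its own vertical scale that does not start at 0). For each gene the Sun049T-Z arrays lie apart from the Hyb-8 and Sun224T-K arrays, and none of the 6 was called in Hyb-8 against Sun224T-K.

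ACT1 itself differed by 0.16 in Hyb-8 against Sun049T-Z (adjusted p = 0.23) and by -0.16 in Hyb-8 against Sun224T-K (adjusted p = 0.42). In Sun224T-K against Sun049T-Z it differed by 0.32 (adjusted p = 0.028). ACT1 scaling subtracts these differences from every gene. Scaling to ACT1 in place of the 75th percentile moved the median of all genes to -0.13 in Hyb-8 against Sun049T-Z, to 0.17 in Hyb-8 against Sun224T-K and to -0.32 in Sun224T-K against Sun049T-Z. The calls over all genes then split into 418 higher and 713 lower, 91 higher and 17 lower, and 336 higher and 1069 lower, in place of 557 and 541, 51 and 23, and 560 and 634. No called gene of the 34 changed sign under any scaling. Probes of paralogs such as SDH1 and SDH9, CIT1 and CIT2 or PYC1 and PYC2 may share signal, which was not tested, and a strain's own sequence under a probe cannot be told apart from its transcript level.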

How the data were processed

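Total RNA of 9 samples (3 strains, 3 arrays each) was hybridised to 1-colour Agilent yeast arrays. Per the file headers, the deposited scanner files hold Feature Extraction output as spot intensity on a linear scale (gProcessedSignal, background-subtracted), and Agilent Feature Extraction 10.1.1.1 is named in the submitters' processing notes. The authors' deposited log2 value table, made in GeneSpring GX, correlated with the scanner values at r between 0.998 and 1.000 once each probe was centred on its median over the 9 arrays, so its scale, centring and direction were settled. It was used as an alternative.

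Spots flagged as outliers were left out, intensity was expressed as log2 relative to its array's 75th percentile, and a probe's 7 spots were combined as their mean. A probe entered the test if more of its kept spots than not were well above background in every array of some strain, which left out 309 of 6256 probes. Of all probes, 5756 matched a gene name in the R64 gene table and 500 kept the name in the files. Strains were compared with limma 3.58.1 in R 4.3.3 (lmFit and eBayes over all 9 arrays, strain as the only term), with Benjamini-Hochberg adjustment over 5947 probes. Every adjusted p in the text is from such a limma fit, ± after a difference is its standard error, and ± after a level is the SD of 3 arrays. The number of arrays limits the precision. The procedure was tested on simulated data.

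The 34 genes and the 5 lists were chosen with earlier results of these data known. Values on each array were given for called genes, at most 3 per pathway step by absolute difference, isozymes were named together, and at most 4 called genes per list were named. SDH1, SDH2, SDH4, ACO1, MDH2, ICL1, MLS1, FBP1 and ICL2 were given in more detail than this rule asks, after their values were seen. Compartments were assigned from general knowledge of each enzyme.

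The alternatives tried were normexp background correction (on the median spot signal, as the mean was not used here), quantile, median and ACT1 scaling, the authors' table, other probe and spot filters, other thresholds, other fits, replicate and slide blocks, and leaving out each array. The median of the spots in place of their mean was added after low spots on Sun049T-Z replicate 1 were seen. Promoter motifs were not analysed here, and no sequences or coordinates were used.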

Additional observations from a re-analysis of the deposited data

How the results depend on the processing

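None of the 18 single differences that were called changed sign under any alternative run. At a fold of 1.5 higher and lower counts became 12 and 5 in Hyb-8 against Sun049T-Z, 1 and 6 in Hyb-8 against Sun224T-K, and 14 and 3 in Sun224T-K against Sun049T-Z, and at any fold 14 and 7, 2 and 6, and 17 and 5. With ACT1 scaling CIT3 was called higher in Hyb-8 against Sun224T-K, a count of 1, and 5 genes were called higher between the parental strains, where LPD1 (0.73), IDH2 (0.75), KGD1 (0.75) and LSC1 (0.89) dropped out. With slide as a fixed block 1 gene (SDH9) was called lower in the hybrid than in Sun224T-K, and SDH2 (-0.99), LPD1 (0.63) and IDH2 (0.96) were under 2-fold. Leaving out each array gave 6 to 7 higher and 1 to 1 lower in Hyb-8 against Sun049T-Z, 0 to 1 and 1 to 3 in Hyb-8 against Sun224T-K, and 8 to 10 and 0 to 0 in Sun224T-K against Sun049T-Z. The gene gained in Hyb-8 against Sun224T-K was CIT3, without Sun224T-K replicate 1, and ACO1 was called lower without Hyb-8 replicate 1 or Sun224T-K replicate 2. Same-numbered arrays of different strains had residual correlations of -0.246 to 0.151 (median 0.016), and differently numbered ones of -0.365 to 0.356 (median 0.015). No pairing by number was seen, which so few arrays cannot exclude. With the replicate block the counts were 6 and 1, 0 and 2, and 9 and 0, no call changed, and over all genes 40 in place of 51 were higher in Hyb-8 against Sun224T-K. Over all genes that count was 91 with ACT1 scaling, 88 without Sun224T-K replicate 1 and 31 without its replicate 2, 29 without Hyb-8 replicate 3 and 81 at an unadjusted p, and the lower count was 14 in place of 23 with normexp. Normexp also gave 371 in place of 560 higher in Sun224T-K against Sun049T-Z. At folds of 1.5 and at any fold the counts over all genes were 1184 and 1709 higher and 1134 and 1624 lower in Hyb-8 against Sun049T-Z, 132 and 180 higher and 90 and 146 lower between the hybrid and Sun224T-K, and 1210 and 1732 higher and 1187 and 1731 lower in Sun224T-K against Sun049T-Z. With ACT1 scaling the differences of ACT1 itself, given above, are subtracted from every gene. The causes of the other shifts were not tested.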
